A study of Mus musculus with 8 samples.

Results

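Mouse peritoneal macrophages cultured with histidine-rich glycoprotein (HRG) for 24 h were compared with the same preparation cultured with HRG for 6 h, to find the genes that rise and fall with time beside HRG. The comparison used the 4 arrays labelled as HRG-treated, 2 at each time, out of 8 arrays in the series, and both arrays of each time were used. The cells came by peritoneal lavage from wild-type C57/Bl6 mice, were pooled from 10 animals and were kept overnight in RPMI with 5% FCS. They then received recombinant HRG at 1 µg/ml for 6 or 24 h, in duplicate. The other 4 arrays hold basal cells of the same preparation, cultured for 6 or 24 h without HRG, also in duplicate, and no genotype differed between the groups. The comparison of 24 h with 6 h therefore measures the time with HRG and the time in culture together. Since the animals were pooled, the 2 arrays of a group are not separate animals, so that a p-value reflects the scatter of these samples alone, and that scatter may be technical. From 250 ng of total RNA per sample, biotinylated sense-strand cDNA was hybridised to whole-transcript arrays.

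HRG is an abundant plasma glycoprotein made by the liver, with a histidine-rich region that binds zinc, haem and heparan sulphate, and it also binds plasminogen, fibrinogen, immunoglobulin G, complement components and dying cells. Peritoneal macrophages are phagocytes that live in the fluid of the body cavity. They clear dying cells through complement, Fc and scavenger receptors, and after removal from the cavity and attachment to plastic they are known to switch on inflammatory, interferon-responsive and metabolic genes.

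The values are log2 expression levels, and a change is the mean of the 24 h arrays minus the mean of the 6 h arrays, given with its standard error (SE) from limma (n = 2 arrays at each time). A gene is said to have risen or fallen where the p-value of limma, adjusted over all 19938 genes by the Benjamini-Hochberg method, was under 0.05. With HRG, 880 genes rose and 572 fell, which is 7.28% of the genes tested, 4.41% in the rising and 2.87% in the falling direction. Of these, 102 rose and 47 fell by at least 2-fold. The median change of all genes was -0.020. Beside a count of 0, the number at an unadjusted p under 0.05 is given in brackets; it was 3766 over all genes. The number of calls rested on each array. It was 402 higher and 264 lower without 24 h replicate 1, 473 and 162 without 24 h replicate 2, 390 and 139 without 6 h replicate 1, and 397 and 279 without 6 h replicate 2. Further on, the count of a gene list without each HRG array is given in this order of the 4 arrays. The 2 arrays of a group correlated at r = 0.998 (6 h) and 0.997 (24 h) over all rows. Of the 4 HRG arrays, 24 h replicate 1 was the highest for 12 of 19 B cell and 13 of 21 T and NK cell markers. It was also the highest for 8 of 13 mast cell and 7 of 15 dendritic cell markers. The other 24 h array was the highest for 2, 6, 1 and 2 markers of these lists. Of 13 macrophage markers, 6 were highest on 24 h replicate 1 and 5 on 24 h replicate 2. The share over all genes was not counted, so these counts do not show that the markers differ from other genes in this. Over all rows the lower and upper quartiles were 5.89 and 9.23 on 24 h replicate 1. On 24 h replicate 2 they were 5.96 and 9.17. The 13 measured macrophage markers, among them Lyz2, Csf1r and Adgre1, summed to 162.48 and 163.07 at 6 h and 165.71 and 165.60 at 24 h; levels of different probes are not set against each other here, so that these levels do not show which cell types are present. Further on, the settings that keep all HRG arrays are 8 alternatives, not counting the fits that leave out 1 basal array. Where any of these 8 moved the count of a list by over 1.5 times and by more than 1 gene, the range over them is given.

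The largest rises were those of the chemokine Ccl6, the receptor gene Adgre4 and the glycolytic enzyme gene Aldoc. Ccl6, of the CC family, stood at 9.13 and 9.70 at 6 h and 12.20 and 12.11 at 24 h, a rise of 2.74 ± 0.24 (6.68-fold; adjusted p = 5.1e-05). Both 24 h arrays lay above both 6 h arrays by more than 2 log2 units. Adgre4, an adhesion G protein-coupled receptor of myeloid cells, stood at 6.56 and 6.62 at 6 h and 9.15 and 8.96 at 24 h (2.47 ± 0.15, adjusted p = 5.4e-06). Aldoc, the glycolytic enzyme aldolase C, stood at 8.06 and 7.93 at 6 h and 10.44 and 10.35 at 24 h (2.40 ± 0.10, adjusted p = 7.2e-07). For both genes the arrays of the times did not overlap. Ppbp, a platelet-type CXC chemokine, went from 8.67 to 10.73 (2.05 ± 0.11), and Ccl24, an eotaxin, from 7.34 to 9.25 (1.91 ± 0.18). The others of the 20 largest rises were Nxpe5 (2.18 ± 0.20), the ABC transporter Abca9 (2.03 ± 0.11), nicotinamide N-methyltransferase Nnmt (1.95 ± 0.18), the TNF family ligand Tnfsf14 (1.88 ± 0.20) and guanine deaminase Gda (1.85 ± 0.19). They also held the proton pump subunit Atp6v0d2 (1.82 ± 0.13), the ether lipid enzyme Agmo (1.82 ± 0.21), the integrin ligand Edil3 (1.81 ± 0.20), the collagen-binding integrin Itga1 (1.77 ± 0.16), C1qc (1.72 ± 0.19) and the isoprenoid enzyme Idi1 (1.72 ± 0.20). The remaining rises were Ifitm6 (1.69 ± 0.14), the matrix protein Sparc (1.69 ± 0.17), the leptin receptor Lepr (1.68 ± 0.20) and the calcium-binding protein S100a4 (1.67 ± 0.12). Adjusted p lay between 7.2e-07 and 0.00035 over these 20 genes.

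The falls were led by Ch25h, which makes 25-hydroxycholesterol, and by interferon-responsive genes. Ch25h stood at 10.69 and 10.36 at 6 h and 7.90 and 8.15 at 24 h, so it fell by 2.50 ± 0.13 (adjusted p = 3.5e-06). Both 24 h arrays lay below both 6 h arrays. Mmp3, the matrix metalloproteinase stromelysin-1, stood at 9.91 and 9.92 at 6 h and 8.28 and 8.37 at 24 h (-1.59 ± 0.11, adjusted p = 9.5e-06), and Slc6a9, a glycine transporter, at 10.95 and 10.62 at 6 h and 9.27 and 9.12 at 24 h (-1.59 ± 0.16, adjusted p = 0.00012). Beside the interferon-stimulated genes described next, the 20 largest falls held Tpbpa (-1.56 ± 0.17), the glutamate transporter Slc1a2 (-1.42 ± 0.16), the semaphorin receptor Plxna4 (-1.40 ± 0.13), Glrp1 (-1.34 ± 0.10) and Bpifc (-1.22 ± 0.13). They also held the interleukin-36 genes Il1f6 (-1.25 ± 0.17) and Il1f9 (-1.19 ± 0.14), and the collagenase Mmp13 (-1.20 ± 0.15). Over the 20 genes adjusted p lay between 3.5e-06 and 0.0012. All 20 of these falls and the 20 largest rises also passed under every alternative setting run.

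**Figure D1:**
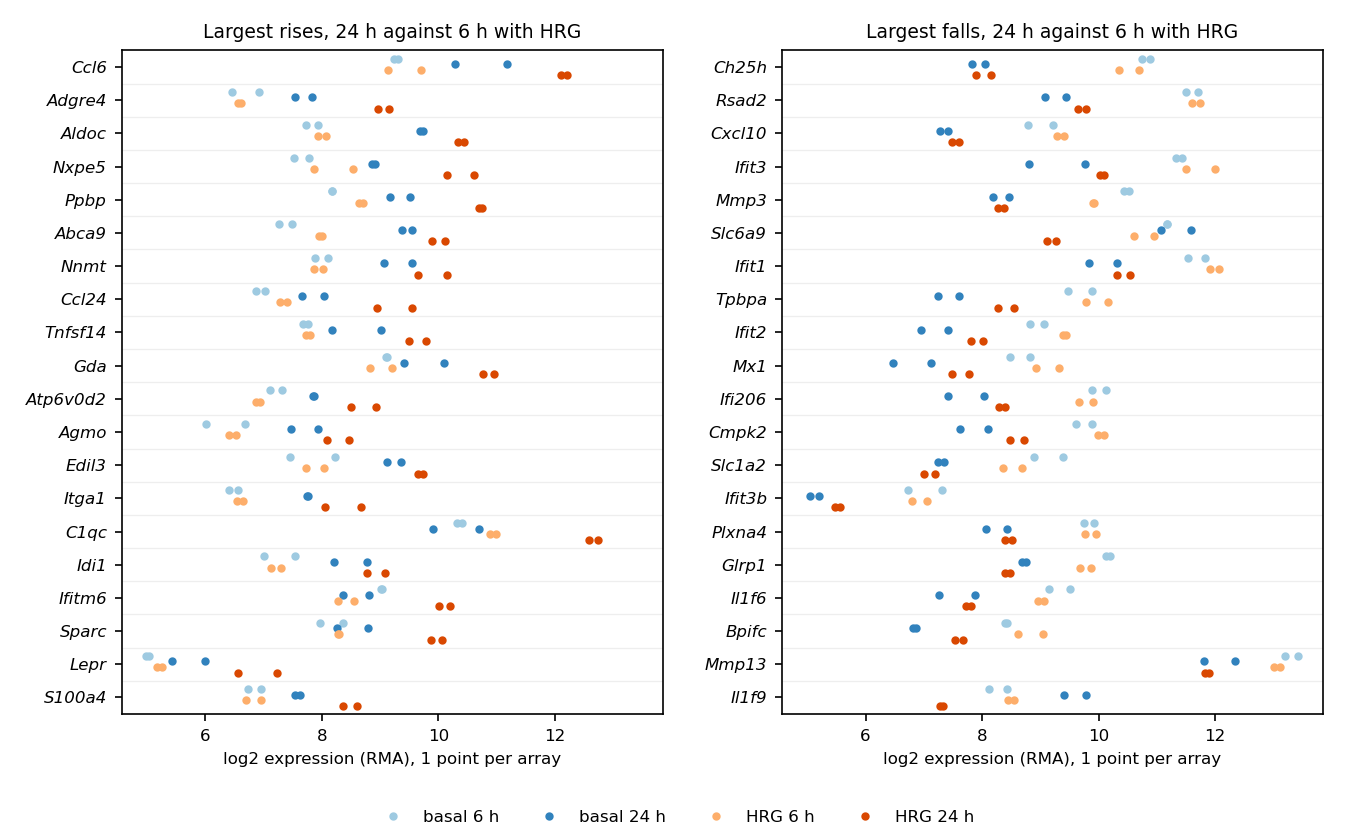
Log2 levels on the 2 HRG 6 h and 2 HRG 24 h arrays and the 4 basal arrays (horizontal axis), for the 20 genes with the largest rises (left) and the 20 with the largest falls (right), with 1 point per array. Ccl6 goes from 9.41 to 12.16 on average, and the points of the 2 times do not overlap for Ccl6, Aldoc or Ch25h.

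Interferon-stimulated genes, which encode antiviral proteins, fell or did not pass: of 27 measured, 0 (1 unadjusted) rose, 14 fell and 13 did not pass, with a median change of -0.56 beside -0.020 over all genes. Rsad2 (viperin) stood at 11.60 and 11.74 at 6 h and 9.79 and 9.65 at 24 h and fell by 1.95 ± 0.13 (adjusted p = 9.0e-06). Ifit3 stood at 11.51 and 12.003 at 6 h and 10.03 and 10.10 at 24 h and fell by 1.69 ± 0.24 (adjusted p = 0.0012). The 24 h arrays of both genes lay below both 6 h arrays. Ifit1 (-1.56 ± 0.16) and Ifit2 (-1.50 ± 0.15), which bind foreign RNA, the dynamin-like GTPase Mx1 (-1.49 ± 0.20) and the mitochondrial nucleotide kinase Cmpk2 (-1.44 ± 0.15) also fell. Among the 20 largest falls, Ifit3b (-1.41 ± 0.16) and the DNA sensor family gene Ifi206 (-1.44 ± 0.17) belong to the same class. Ifit3 and Ifit3b are near-identical copies, whose probes may not tell them apart. In basal cells 25 of the 27 genes fell with time, with a median of -0.84, beside 5.48% of all genes. The change differed between the conditions for 1 gene of the list, where the change with HRG was higher, and for 0 (0 unadjusted) in the other direction, beside 1.02% and 0.451% of all genes. The gene was Irf1, a factor induced by interferon, with changes of 0.34 ± 0.10 with HRG and -0.38 without it.

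Promoter windows of RefSeq (build GRCm38.p6, 250 bases before to 50 after the start site) were searched on both strands for the interferon-stimulated response element, taken as GAAA, any 2 bases and GAAA again. It was present in 12 of the 22 list members with a promoter window (54.5%) and 3.89% of the 15614 tested genes with a window. Of the 11 members with a window that fell, 5 held it. The members were listed as interferon-responsive genes, so the share beside all genes is no result of these data. The stretches of Ifit1 (chr19:34640750-34640829, plus strand), Ifit3 (chr19:34583338-34583417, plus strand) and Rsad2 (chr12:26456528-26456607, minus strand) are shown because these genes were among the largest falls; capitals mark the match, read 5′ to 3′ on the strand of the gene, where it appears as its reverse complement.
Ifit1: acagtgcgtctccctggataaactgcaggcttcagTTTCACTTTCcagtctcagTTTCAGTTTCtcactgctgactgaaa
Ifit3: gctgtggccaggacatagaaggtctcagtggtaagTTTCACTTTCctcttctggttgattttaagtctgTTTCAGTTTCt
Rsad2: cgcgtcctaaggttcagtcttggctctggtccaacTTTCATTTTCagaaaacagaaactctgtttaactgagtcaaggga
The match nearest the 5′ end lay 104 bases before the start site of Ifit1, 156 before that of Ifit3 and 120 before that of Rsad2. A match describes the letters of the window and does not show that a factor binds there.

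Of 26 measured chemokines, 6 rose and 3 fell (median -0.043). Beside Ccl6, Ppbp and Ccl24, the CC chemokine Ccl9 rose by 1.57 ± 0.14 (adjusted p = 5.4e-05), from 11.09 to 12.66, and Cxcl14 by 0.81 ± 0.10 (adjusted p = 0.00066). Cxcl10, an interferon-inducible T cell chemokine, stood at 9.29 and 9.40 at 6 h and 7.61 and 7.48 at 24 h and fell by 1.80 ± 0.13 (adjusted p = 1.5e-05). The others that fell were Ccl5 (-0.57 ± 0.093) and the neutrophil chemokine Cxcl1 (-0.63 ± 0.15). Of 17 chemokine receptors and related receptors 5 rose and 2 fell; without each array 3, 3, 3 and 3 rose and 0, 0, 0 and 0 fell. The scavenging receptor Ackr3 rose by 0.87 ± 0.12 (adjusted p = 0.00075), Ccrl2 by 0.69 ± 0.12 (adjusted p = 0.0042) and Cxcr4, the receptor of Cxcl12, by 0.64 ± 0.090 (adjusted p = 0.0011). Of 24 inflammatory cytokines and colony stimulating factors, 3 rose and 3 fell; without each array 2, 2, 2 and 2 rose and 1, 2, 1 and 3 fell. Tnfsf9, the ligand of the costimulatory receptor 4-1BB, stood at 8.02 and 8.10 at 6 h and 9.40 and 9.37 at 24 h and rose by 1.33 ± 0.095 (adjusted p = 1.3e-05). Il18 rose by 0.81 ± 0.14 and Il15 by 0.57 ± 0.15, while Il6 fell by 0.74 ± 0.13 and Csf1, the growth factor of macrophages, fell by 0.49 ± 0.11. Over the settings that keep all HRG arrays, 3 to 5 chemokines and 3 to 6 cytokines fell. The change with HRG missed the threshold in at least 1 alternative for Il18 (adjusted p up to 0.064, without HRG 24 h replicate 2), Il6 (adjusted p up to 0.068, without HRG 6 h replicate 1), Il15 (adjusted p up to 0.29, without HRG 24 h replicate 1) and Csf1 (adjusted p up to 0.18, without HRG 6 h replicate 1).

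Glycolytic and hypoxia-inducible genes rose together. Of 27 measured, 19 rose, 0 (0 unadjusted) fell and 8 did not pass, with a median change of 0.48; without each HRG array 12, 12, 12 and 11 rose. Aldoc is given above. Pdk1, a kinase that restrains the entry of pyruvate into mitochondria, stood at 8.90 and 8.92 at 6 h and 10.37 and 10.39 at 24 h and rose by 1.47 ± 0.094 (adjusted p = 7.6e-06). The times did not overlap. Pfkl, the liver-type phosphofructokinase, rose by 1.06 ± 0.10 (adjusted p = 9.5e-05), the mitophagy gene Bnip3 by 1.06 ± 0.091 (adjusted p = 5.0e-05), the prolyl hydroxylase Egln3, which marks hypoxia-inducible factors for decay, by 1.02 ± 0.11 (adjusted p = 0.00021) and Ankrd37 by 0.88 ± 0.12 (adjusted p = 0.0010). Vegfa, a growth factor of blood vessels, rose by 0.71 ± 0.10 (adjusted p = 0.0013). In basal cells 22 of the 27 rose over the same time (median 0.59), beside 3.80% of all genes. The difference between the changes passed for 0 (3 unadjusted) with a lower and 0 (1 unadjusted) with a higher change with HRG. Of 29 respiratory chain and ATP synthase subunits 5 rose and 0 (0 unadjusted) fell (median 0.24), and without each array 4, 0, 0 and 2 rose. They were Ndufa1 (0.58 ± 0.12), Ndufa4 (0.56 ± 0.12), Ndufb5 (0.38 ± 0.10), Sdhd (0.55 ± 0.11) and Atp5o (0.51 ± 0.095). With all HRG arrays kept, the other settings gave counts by which 4 to 12 respiratory subunits rose. With an array left out or under another setting, the adjusted p of the change with HRG was above 0.05 for Ndufa1 (adjusted p up to 0.14, without HRG 6 h replicate 1), Ndufa4 (adjusted p up to 0.16, without HRG 24 h replicate 2), Sdhd (adjusted p up to 0.090, without HRG 24 h replicate 2), Atp5o (adjusted p up to 0.081, without HRG 6 h replicate 1) and Ndufb5 (adjusted p up to 0.28, without HRG 6 h replicate 2).

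The core of the hypoxia response element, ACGTG, was searched in the same windows. It was present in 21 of the 27 list members with a promoter window (77.8%) and 24.4% of the 15614 tested genes with a window. Of the 19 called members with a window, 15 held it. The members of this list and of the lists searched below were chosen for known functions. Their shares beside all genes are therefore no result of these data either. The stretches of Aldoc (chr11:78323043-78323122, plus strand) and Bnip3 (chr7:138909573-138909652, minus strand) are shown, with the match in capitals; the run CACGTG in Bnip3 holds the core on both strands.
Aldoc: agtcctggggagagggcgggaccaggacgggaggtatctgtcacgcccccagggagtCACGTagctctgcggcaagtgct
Bnip3: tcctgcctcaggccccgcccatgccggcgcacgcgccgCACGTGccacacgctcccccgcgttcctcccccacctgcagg
The match began 27 bases after the start site of Aldoc and 108 before that of Bnip3.

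Genes of cholesterol synthesis and uptake also rose together. Of 20 measured, 13 rose, 0 (0 unadjusted) fell and 7 did not pass (median 0.58). Idi1, which isomerises isopentenyl diphosphate, stood at 7.13 and 7.31 at 6 h and 8.78 and 9.09 at 24 h and rose by 1.72 ± 0.20 (adjusted p = 0.00027). The sterol carrier Stard4 stood at 7.48 and 7.39 at 6 h and 8.54 and 8.69 at 24 h and rose by 1.18 ± 0.12 (adjusted p = 0.00011). Both 24 h arrays of each gene lay above both 6 h arrays. Squalene epoxidase Sqle rose by 1.13 ± 0.11, squalene synthase Fdft1 by 1.11 ± 0.14, farnesyl diphosphate synthase Fdps by 1.11 ± 0.12 and lanosterol demethylase Cyp51 by 1.06 ± 0.10, with adjusted p of 0.00011, 0.00045, 0.00016 and 9.0e-05. In basal cells 9 of the 20 rose (median 0.39). The sterol regulatory element, written here as TCACNCCAC, was present in 1 of the 16 list members with a promoter window (6.25%) and 1.40% of the 15614 tested genes with a window. Of the 9 called members with a window, 1 held it.

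Targets of the oxysterol receptor LXR and sterol efflux genes went in both directions: 2 of 21 rose and 5 fell, with Ch25h the farthest. The cholesterol exporter Abcg1 stood at 11.76 and 11.61 at 6 h and 10.81 and 10.71 at 24 h and fell by 0.93 ± 0.10 (adjusted p = 0.00021). Nr1h3, which encodes LXR alpha, fell by 0.68 ± 0.11 (adjusted p = 0.0022), Mylip, which marks the LDL receptor for decay, by 0.81 ± 0.13 (adjusted p = 0.0032), and the oxidised LDL receptor Olr1 by 0.83 ± 0.10 (adjusted p = 0.00040). The sterol 27-hydroxylase Cyp27a1 rose by 0.66 ± 0.10 (adjusted p = 0.0024), and so did the cholesteryl ester hydrolase Nceh1 (0.56 ± 0.10). Of 27 genes of fatty acid storage and oxidation 4 rose and 1 fell. The fatty acid binding proteins led: Fabp5 stood at 10.87 and 10.84 at 6 h and 11.89 and 11.97 at 24 h (1.08 ± 0.13, adjusted p = 0.00036) and Fabp4 at 9.25 and 9.26 at 6 h and 10.09 and 10.02 at 24 h (0.80 ± 0.11, adjusted p = 0.00091). For both, the change differed from that of basal cells, which was -0.12 for Fabp5 and -0.34 for Fabp4, with adjusted p of the difference of 0.0092 and 0.0048. The lipid droplet gene Hilpda rose by 0.73 ± 0.11 (adjusted p = 0.0018). Under the other settings with all HRG arrays, 2 to 4 genes of the list with LXR targets and efflux genes rose.

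Clock genes, whose products form the circadian feedback loop, changed between these times: of 19 measured, 9 rose and 1 fell (median 0.34). Per3, a repressor of the loop, stood at 7.68 and 7.59 at 6 h and 8.81 and 8.73 at 24 h and rose by 1.13 ± 0.11 (adjusted p = 8.7e-05). The repressors Per2 (0.77 ± 0.11, adjusted p = 0.0015) and Cry1 (0.80 ± 0.11, adjusted p = 0.00074) rose as well. The output factors Dbp (0.93 ± 0.13, adjusted p = 0.0013) and Nfil3 (1.01 ± 0.14, adjusted p = 0.00085) rose, although the protein of Dbp activates and that of Nfil3 represses through the same element. Bhlhe40, another repressor, rose by 0.74 ± 0.12 (adjusted p = 0.0023), against -0.14 in basal cells (adjusted p of the difference 0.025). The gene that fell was Arntl, the activator of the loop (-0.67 ± 0.089 with HRG, -1.07 in basal cells). In basal cells 8 of the 19 rose and 1 fell. Only 2 times were sampled.

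The E-box CACGTG was present in 5 of the 16 list members with a promoter window (31.2%) and 9.50% of the 15614 tested genes with a window. The D-box, written as TTANGTAA, was present in 1 of the 16 list members with a promoter window (6.25%) and 2.41% of the 15614 tested genes with a window. Of the 8 called members with a window, 3 held the E-box and 1 the D-box. The E-box contains the core ACGTG searched above. The stretches of Cry1 (chr10:85185072-85185151, minus strand) with an E-box and Per3 (chr4:151044827-151044906, minus strand) with a D-box in capitals are shown because both genes rose.
Cry1: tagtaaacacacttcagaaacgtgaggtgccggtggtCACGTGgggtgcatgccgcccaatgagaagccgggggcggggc
Per3: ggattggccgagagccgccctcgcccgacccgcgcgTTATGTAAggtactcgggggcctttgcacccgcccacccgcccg
The match shown began 60 bases before the start site of Cry1 and 205 before that of Per3. The window of Per3 holds another D-box match, which began 158 bases before the start site and lies outside the stretch.

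Complement and phagocytic receptor genes mostly rose where they passed: 10 of 32 rose and 2 fell (median 0.10), and without each HRG array 5, 7, 6 and 6 rose. C1qa, C1qb and C1qc encode the 3 chains of the complement recognition protein C1q. C1qc stood at 10.89 and 10.998 at 6 h and 12.74 and 12.59 at 24 h and rose by 1.72 ± 0.19 (adjusted p = 0.00020). C1qa stood at 10.87 and 10.88 at 6 h and 12.47 and 12.45 at 24 h and rose by 1.58 ± 0.16 (adjusted p = 0.00013), and C1qb rose by 1.23 ± 0.13 (adjusted p = 0.00018). All 3 chains were higher on both 24 h arrays than on both 6 h arrays. The complement receptor Vsig4 stood at 9.33 and 9.76 at 6 h and 11.09 and 11.03 at 24 h and rose by 1.52 ± 0.15 (adjusted p = 0.00012). In basal cells the changes were -0.060 for C1qc, 0.23 for C1qa, 0.13 for C1qb and 0.21 for Vsig4, and the difference passed for each, with adjusted p of 0.0082, 0.015, 0.016 and 0.013. Without 24 h replicate 1 with HRG, the adjusted p of the difference was 0.062 for C1qc and 0.087 for C1qa. Pros1, a bridging protein between dying cells and phagocytes, rose by 1.15 ± 0.13 (adjusted p = 0.00021), as did Gas6 (0.64 ± 0.12), its paralog, and their receptor Mertk (0.52 ± 0.10). The receptor Axl (-0.60 ± 0.15) and the scavenger receptor Stab1 (-0.41 ± 0.10) fell. Calls of the change with HRG that were lost in an alternative were those of Gas6 (adjusted p up to 0.060, without HRG 24 h replicate 1) and Mertk (adjusted p up to 0.11, without HRG 6 h replicate 1).

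Of 23 Fc receptor, TREM and related receptor genes 9 rose and 1 fell (median 0.24). The low-affinity immunoglobulin G receptor Fcgr3 stood at 12.20 and 12.05 at 6 h and 12.99 and 12.92 at 24 h and rose by 0.83 ± 0.11 (adjusted p = 0.00086). Trem1, which amplifies inflammatory signalling, rose by 1.01 ± 0.12 (adjusted p = 0.00038), the beta-glucan receptor Clec7a (dectin-1) by 0.91 ± 0.10 (adjusted p = 0.00027) and Clec4n (dectin-2) by 1.20 ± 0.14 (adjusted p = 0.00024). Treml4 fell by 1.00 ± 0.24 against a change of 0.95 in basal cells (adjusted p of the difference 0.017). Among 27 scavenger receptors and lectins 5 rose and 1 fell; without each array 3, 4, 3 and 3 rose. The mannose receptor Mrc1 stood at 6.87 and 6.98 at 6 h and 8.46 and 8.21 at 24 h and rose by 1.41 ± 0.12 (adjusted p = 4.3e-05), against 0.22 in basal cells (adjusted p of the difference 0.0065). Clec4a2 rose by 0.78 ± 0.10 and galectin-1, Lgals1, by 0.63 ± 0.097. Mrc1 and Ccl24 are also on the list of alternative activation markers, of which 9 of 24 rose and 4 fell; without each array 5, 8, 5 and 6 rose and 2, 2, 1 and 1 fell. Egr2 rose by 1.10 ± 0.12 (adjusted p = 0.00020) and Socs2 by 0.81 ± 0.14 (adjusted p = 0.0036), while the lipoxygenase Alox15 fell by 0.75 ± 0.11 (adjusted p = 0.0016). Over the settings that keep all HRG arrays, 3 to 6 scavenger receptors and lectins rose. In some alternatives the adjusted p of the change with HRG rose above 0.05, for Treml4 (adjusted p up to 0.19, without HRG 24 h replicate 2).

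Lysosomal hydrolases and cathepsins rose in 10 of 30 cases and fell in 1 (median 0.17), and without each HRG array 4, 5, 4 and 5 rose. Atp6v0d2, a subunit of the pump that acidifies lysosomes, stood at 6.93 and 6.86 at 6 h and 8.93 and 8.50 at 24 h and rose by 1.82 ± 0.13 (adjusted p = 1.5e-05). In basal cells it changed by 0.65 (adjusted p of the difference 0.013). Lysosomal alpha-mannosidase Man2b1 rose by 0.68 ± 0.094, cathepsin C, Ctsc, by 0.59 ± 0.093 and beta-glucuronidase Gusb by 0.51 ± 0.090, with adjusted p of 0.00094, 0.0023 and 0.0047.

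**Figure D2:**
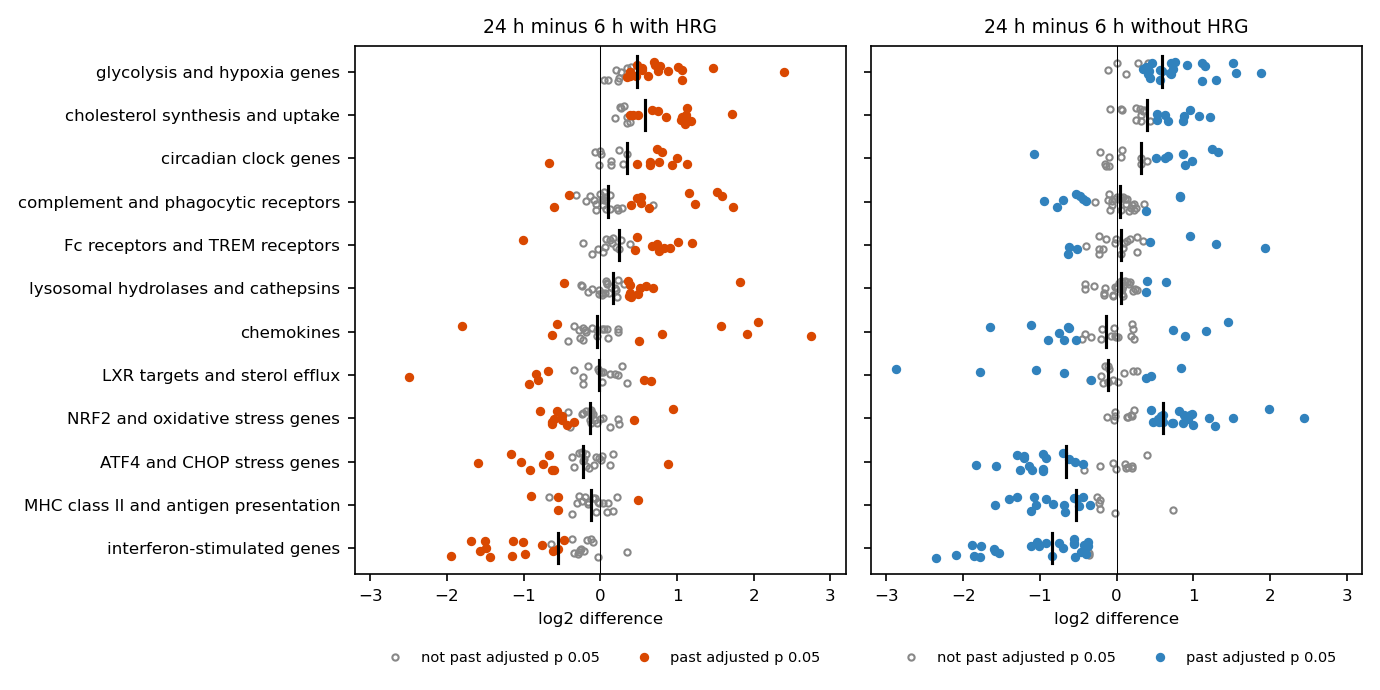
Change in log2 level from 6 h to 24 h (horizontal axis) with HRG on the left and without it on the right, for every measured member of the gene lists drawn, with 1 point per gene, filled where limma adjusted p was under 0.05, and the list median as a bar. With HRG, interferon-stimulated genes lie mostly below 0 (median -0.56), and glycolysis and cholesterol genes mostly above it (medians 0.48 and 0.58).

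Genes of the amino acid stress response mostly fell where they passed. Of 26 ATF4 and CHOP genes 1 rose and 8 fell (median -0.23); without each HRG array 7, 5, 4 and 8 fell. The amino acid transporter Slc7a5 stood at 10.59 and 10.36 at 6 h and 9.46 and 9.15 at 24 h and fell by 1.17 ± 0.14 (adjusted p = 0.00029). The pseudokinase Trib3 fell by 1.04 ± 0.12 (adjusted p = 0.00025) and asparagine synthetase Asns by 0.92 ± 0.13 (adjusted p = 0.0013), while Ddit4, an inhibitor of mTORC1, rose by 0.89 ± 0.11 (adjusted p = 0.00039). In basal cells 16 of them fell (median -0.66). The list also holds Slc6a9, which changed by 0.15 in basal cells (adjusted p of the difference 0.0043). The element TGATGNAA was present in 8 of the 22 list members with a promoter window (36.4%) and 3.62% of the 15614 tested genes with a window. Of the 8 called members with a window, 2 held it. Of 18 cytosolic aminoacyl-tRNA synthetases, which charge transfer RNAs, 0 (0 unadjusted) rose and 3 fell: Eprs (-0.59 ± 0.095), Gars (-0.47 ± 0.099) and Iars (-0.48 ± 0.10). Of 21 chaperones and folding enzymes of the endoplasmic reticulum 1 rose and 3 fell. Ero1a, which reoxidises protein disulphide isomerase, rose by 0.66 ± 0.099, and those that fell were Dnajb9 (-0.77 ± 0.12), Hspa5 (-0.39 ± 0.092) and Manf (-0.40 ± 0.093). Without each HRG array 1, 1, 1 and 2 synthetases and 1, 1, 1 and 1 chaperones fell. With all HRG arrays kept, the other settings gave counts by which 3 to 6 synthetases fell. The change with HRG missed the threshold in at least 1 alternative for Iars (adjusted p up to 0.14, without HRG 6 h replicate 1), Gars (adjusted p up to 0.14, without HRG 6 h replicate 1), Manf (adjusted p up to 0.21, without HRG 6 h replicate 1) and Hspa5 (adjusted p up to 0.16, without HRG 24 h replicate 1).

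Genes of the antioxidant factor NRF2 changed differently with and without HRG. With HRG 2 of 30 rose and 9 fell (median -0.13), in basal cells 21 rose and 0 (0 unadjusted) fell (median 0.60), and the difference passed for 16 genes with a lower change with HRG and 0 (0 unadjusted) with a higher one. Without each HRG array 1, 2, 0 and 1 fell with HRG, and the difference passed for 7, 12, 12 and 10. Nqo1, a quinone reductase, stood at 9.51 and 9.59 at 6 h and 8.70 and 8.82 at 24 h with HRG and at 9.38 and 8.99 at 6 h and 10.93 and 11.43 at 24 h without it. The change was -0.79 ± 0.16 with HRG and 1.99 in basal cells, a difference of -2.78 ± 0.23 (adjusted p 0.00043). At 24 h both basal arrays lay above both HRG arrays, while at 6 h they lay below them. Ephx1, the microsomal epoxide hydrolase, rose in both conditions, by 0.94 ± 0.14 with HRG and 2.44 without (adjusted p of the difference 0.0046). The other NRF2 gene that rose with HRG was the glutathione transferase Gstp1 (0.44 ± 0.12). Pir changed by -0.57 ± 0.12 with HRG and 1.20 in basal cells, the reductase Akr1b8 by -0.63 ± 0.17 and 1.00, glutamate-cysteine ligase Gclc by -0.60 ± 0.11 and 0.74, and malic enzyme Me1 by -0.63 ± 0.15 and 0.96. Adjusted p of the difference was 0.0011 for Pir, 0.0075 for Akr1b8, 0.0035 for Gclc and 0.0046 for Me1. With an array left out or under another setting, the adjusted p of the change with HRG was above 0.05 for Nqo1 (adjusted p up to 0.095, without HRG 24 h replicate 1), Pir (adjusted p up to 0.14, without HRG 24 h replicate 1), Akr1b8 (adjusted p up to 0.25, without HRG 24 h replicate 1), Me1 (adjusted p up to 0.13, without HRG 24 h replicate 2) and Gclc (adjusted p up to 0.058, without HRG 6 h replicate 1).

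The antioxidant response element, searched as TGACNNNGC, was present in 10 of the 25 list members with a promoter window (40.0%) and 15.2% of the 15614 tested genes with a window. Of the 10 members with a window that were called with HRG, 5 held it. The stretch of Me1 (chr9:86695877-86695956, minus strand) is shown with the match in capitals, 6 bases before the start site.
Me1: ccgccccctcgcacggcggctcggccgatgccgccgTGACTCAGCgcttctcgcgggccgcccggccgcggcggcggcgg
It is shown because the change of Me1 with time differed with and without HRG.

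Of 22 genes of iron and haem handling 2 rose and 1 fell: the haemoglobin scavenger Cd163 (0.36 ± 0.095) and biliverdin reductase Blvra (0.39 ± 0.096) rose, and Spic, the factor of iron-recycling macrophages, fell by 0.62 ± 0.13. Of 15 zinc transporters and metallothioneins 2 rose and 1 fell. Metallothioneins Mt1 (0.50 ± 0.11) and Mt2 (0.45 ± 0.11) rose and the importer Slc39a6 fell by 0.58 ± 0.15. Without each HRG array 0, 0, 0 and 0 iron genes and 2, 0, 0 and 1 zinc genes rose. Calls of the change with HRG that were lost in an alternative were those of Spic (adjusted p up to 0.098, without HRG 24 h replicate 1), Blvra (adjusted p up to 0.22, without HRG 6 h replicate 2), Cd163 (adjusted p up to 0.25, without HRG 24 h replicate 1), Slc39a6 (adjusted p up to 0.30, without HRG 6 h replicate 1), Mt1 (adjusted p up to 0.15, without HRG 24 h replicate 2) and Mt2 (adjusted p up to 0.29, without HRG 6 h replicate 1).

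Arginine, polyamine and creatine genes were split, with 4 of 18 up and 4 down; without each HRG array 2, 2, 2 and 2 rose. Arginase 2, Arg2, stood at 10.61 and 10.60 at 6 h and 11.73 and 11.58 at 24 h and rose by 1.05 ± 0.11 (adjusted p = 0.00019), and inducible nitric oxide synthase Nos2 rose by 0.67 ± 0.11 (adjusted p = 0.0023). The cationic amino acid transporters Slc7a1 and Slc7a2 fell by 0.86 ± 0.14 and 0.61 ± 0.099, and the creatine transporter Slc6a8 by 0.88 ± 0.10. Argininosuccinate lyase Asl (0.35 ± 0.093) and the creatine-forming Gamt (0.39 ± 0.095) rose. Of the named genes, both arginine-consuming enzymes rose and both arginine importers fell. Of 15 purinergic genes 4 rose and 1 fell (median 0.22). The nucleotide receptor P2ry13 stood at 6.91 and 7.30 at 6 h and 8.84 and 8.56 at 24 h and rose by 1.60 ± 0.14 (adjusted p = 5.5e-05), P2ry14 rose by 0.89 ± 0.091 and Entpd1 (CD39), which breaks down extracellular ATP, by 1.05 ± 0.11 (adjusted p = 0.00014). Of 20 eicosanoid genes 3 rose and 2 fell. The leukotriene-forming Alox5 stood at 9.49 and 9.48 at 6 h and 11.12 and 11.01 at 24 h and rose by 1.58 ± 0.091 (adjusted p = 3.6e-06), and the leukotriene receptor Cysltr1 rose by 1.60 ± 0.13 (adjusted p = 2.6e-05). Prostaglandin receptors split: Ptger4 rose by 0.68 ± 0.10 and Ptger2 fell by 0.59 ± 0.10. Under the other settings with all HRG arrays, 3 to 5 eicosanoid genes rose and 2 to 4 eicosanoid genes fell.

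Matrix metalloproteinases and their inhibitors rose in 5 of 21 cases and fell in 2. Timp3, an inhibitor of these proteases, stood at 6.78 and 6.55 at 6 h and 7.66 and 7.82 at 24 h and rose by 1.08 ± 0.11 (adjusted p = 0.00017), against -0.15 in basal cells (adjusted p of the difference 0.0046). Mmp27 rose by 1.08 ± 0.097, the inhibitor Timp2 by 0.52 ± 0.090, Mmp8 by 0.83 ± 0.10 and Mmp19 by 0.76 ± 0.11, in contrast to the falls of Mmp3 and Mmp13 above. Of 27 secreted matrix proteins and proteoglycans 7 rose and 1 fell. Sparc stood at 8.29 and 8.28 at 6 h and 10.07 and 9.87 at 24 h and rose by 1.69 ± 0.17 (adjusted p = 0.00011). The proteoglycans biglycan, Bgn (1.31 ± 0.20), versican, Vcan (0.74 ± 0.11), and Sdc4 (0.78 ± 0.090) rose, as did Emilin2 (0.68 ± 0.093), while Sdc1 fell by 0.69 ± 0.11. Of 19 plasminogen and coagulation genes 6 rose and 2 fell (median 0.29), and without each array 1, 3, 1 and 3 rose. Procr, the endothelial protein C receptor, stood at 12.23 and 12.17 at 6 h and 11.01 and 11.08 at 24 h and fell by 1.16 ± 0.14 (adjusted p = 0.00048), against 0.46 in basal cells (adjusted p of the difference 0.0042). Protein S, Pros1, is given above. The urokinase gene Plau fell by 0.44 ± 0.10. Of 11 clade B serpins 2 rose and 2 fell, with Serpinb10 at 7.51 and 7.61 at 6 h and 8.91 and 8.75 at 24 h (1.27 ± 0.19, adjusted p = 0.0015); without each array 2, 1, 1 and 2 rose and 0, 0, 0 and 0 fell. Over the settings that keep all HRG arrays, 6 to 11 secreted matrix genes rose. In some alternatives the adjusted p of the change with HRG rose above 0.05, for Plau (adjusted p up to 0.21, without HRG 6 h replicate 1).

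Of 27 angiogenic factors and TGF-beta family genes 3 rose and 6 fell; without each HRG array 2, 3, 2 and 3 rose and 3, 1, 1 and 5 fell. Hgf, hepatocyte growth factor, stood at 7.18 and 7.19 at 6 h and 8.45 and 8.31 at 24 h and rose by 1.19 ± 0.14 (adjusted p = 0.00028), and Fgf2 fell by 0.73 ± 0.11 (adjusted p = 0.0019). Ereg, an EGF receptor ligand, fell by 0.65 ± 0.17 and Pdgfb by 0.63 ± 0.13. Of 28 integrin, adhesion and migration genes 4 rose and 6 fell; without each array 1, 1, 1 and 1 rose and 3, 1, 0 and 3 fell. The collagen receptor chain Itga1 stood at 6.65 and 6.54 at 6 h and 8.67 and 8.06 at 24 h and rose by 1.77 ± 0.16 (adjusted p = 6.1e-05). The other named members fell: Itga5 (-0.74 ± 0.13), Itga2 (-0.71 ± 0.12), Vcam1 (-0.55 ± 0.11), Plxnd1 (-0.71 ± 0.12) and Plxna1 (-0.48 ± 0.12), apart from Icam1, which rose by 0.44 ± 0.091. The integrin chain Itgam (0.40 ± 0.098) and the selectin ligand Selplg (0.43 ± 0.095) rose too. With all HRG arrays kept, the other settings gave counts by which 3 to 5 angiogenic and TGF-beta genes rose. The change with HRG missed the threshold in at least 1 alternative for Icam1 (adjusted p up to 0.11, without HRG 6 h replicate 2), Ereg (adjusted p up to 0.31, without HRG 6 h replicate 1), Pdgfb (adjusted p up to 0.14, without HRG 6 h replicate 1), Itga5 (adjusted p up to 0.051, without HRG 6 h replicate 1), Itga2 (adjusted p up to 0.064, without HRG 6 h replicate 1), Plxnd1 (adjusted p up to 0.065, without HRG 6 h replicate 1), Vcam1 (adjusted p up to 0.095, without HRG 24 h replicate 1) and Plxna1 (adjusted p up to 0.30, without HRG 6 h replicate 1).

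Immediate early genes rose where they passed, 6 of 25 (median 0.16) with 0 (2 unadjusted) falling; without each HRG array 5, 6, 3 and 5 rose. The zinc finger factor Egr2 stood at 9.26 and 9.33 at 6 h and 10.37 and 10.41 at 24 h, the nuclear receptor Nr4a1 rose by 0.77 ± 0.091 (adjusted p = 0.00032) and Fosl2 by 0.75 ± 0.095 (adjusted p = 0.00054). Of 16 MAPK phosphatases and inhibitors 0 (2 unadjusted) rose and 1 fell (Dusp4, -0.70 ± 0.19), of 17 NF-kappaB genes 1 rose and 1 fell (Nfkbib, -0.47 ± 0.12), and of 15 SOCS and related genes 3 rose and 0 (1 unadjusted) fell, which is 6.25%, 11.76% and 20% called beside 7.28% of all genes. Stat4 rose by 0.79 ± 0.12 (adjusted p = 0.0016), against -0.37 in basal cells (adjusted p of the difference 0.0069). Of 24 Toll-like receptor and inflammasome genes 5 rose and 0 (0 unadjusted) fell; without each array 5, 3, 3 and 5 rose. The receptor of nucleic acids Tlr8 rose by 0.92 ± 0.12 (adjusted p = 0.00054), the endotoxin receptor Tlr4 by 0.77 ± 0.11 (adjusted p = 0.0014) and the inflammasome adaptor Pycard by 0.92 ± 0.15 (adjusted p = 0.0032). Under the other settings with all HRG arrays, 0 to 2 MAPK inhibitors, 1 to 3 NF-kappaB genes and 3 to 5 SOCS and related genes rose and 0 to 2 immediate early factors fell. With an array left out or under another setting, the adjusted p of the change with HRG was above 0.05 for Dusp4 (adjusted p up to 0.33, without HRG 6 h replicate 1) and Nfkbib (adjusted p up to 0.26, without HRG 6 h replicate 1).

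Proliferation genes rose in 7 of 44 cases and fell in 0 (4 unadjusted) (median 0.18); without each HRG array 4, 5, 3 and 4 rose. The proliferation antigen Mki67 stood at 8.53 and 8.36 at 6 h and 9.54 and 9.53 at 24 h and rose by 1.09 ± 0.12 (adjusted p = 0.00020), topoisomerase Top2a by 0.74 ± 0.12 (adjusted p = 0.0021) and cyclin A2, Ccna2, by 0.67 ± 0.11 (adjusted p = 0.0033). In basal cells the changes were 0.64, -0.072 and -0.037, and adjusted p of the difference was 0.31, 0.032 and 0.051. Of 24 p53 targets and growth arrest genes 3 rose and 3 fell, among them sestrin Sesn1 (0.83 ± 0.11) and Mdm2, the ligase that degrades p53 (-0.50 ± 0.12); without each array 1, 2, 1 and 2 rose and 1, 0, 0 and 2 fell. Antigen presentation genes rose in 1 and fell in 3 of 22 cases: Cd40, the costimulatory receptor, stood at 11.01 and 10.73 at 6 h and 9.95 and 9.99 at 24 h and fell by 0.90 ± 0.13 (adjusted p = 0.0014), Cd274 (PD-L1) fell by 0.55 ± 0.093, Tap1 fell by 0.56 ± 0.10 and H2-DMa rose by 0.48 ± 0.10. In basal cells 15 of the 22 fell (median -0.53 against -0.13 with HRG), and the difference passed for 6 genes, all with a higher change with HRG. Without each HRG array, that difference passed for 0, 1, 3 and 0 genes. Of 18 glucocorticoid-induced genes 4 rose and 0 (3 unadjusted) fell, among them Zbtb16 (0.48 ± 0.10). Of 25 genes of large resident peritoneal macrophages 6 rose and 3 fell, and of 23 genes of small peritoneal macrophages and monocytes 7 rose and 4 fell. In basal cells 4 rose and 3 fell in the first list, and 2 rose and 8 fell in the second. The difference was higher with HRG for 2 and lower for 1 in the first list. In the second it was higher for 5 and lower for 0 (0 unadjusted), beside 1.02% and 0.451% of all genes. Lyz1 (0.67 ± 0.10, adjusted p = 0.0017) was among the 6 that rose with HRG in the first list, beside the 3 that fell. Without each array 1, 2, 0 and 2 of the glucocorticoid list and 3, 4, 2 and 3 of the large macrophage list rose. Over the settings that keep all HRG arrays, 6 to 11 cell cycle genes rose. In the other direction, 0 to 2 cell cycle genes, 3 to 6 p53 and growth arrest genes and 3 to 6 antigen presentation genes fell. So did 0 to 2 glucocorticoid-induced genes and 2 to 6 large macrophage genes. Calls of the change with HRG that were lost in an alternative were those of Mdm2 (adjusted p up to 0.23, without HRG 24 h replicate 2), Tap1 (adjusted p up to 0.072, without HRG 24 h replicate 2), Cd274 (adjusted p up to 0.053, without HRG 6 h replicate 1), H2-DMa (adjusted p up to 0.15, without HRG 6 h replicate 2) and Zbtb16 (adjusted p up to 0.15, without HRG 24 h replicate 1).

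Markers of other cells that a lavage can hold were measured in the same way. In a bulk sample, fewer cells of a type and less RNA per cell cannot be told apart. Of 19 B cell markers 1 rose and 0 (1 unadjusted) fell with HRG, and their summed log2 level was 166.47 and 166.25 at 6 h and 170.67 and 166.34 at 24 h. In basal cells 14 of them fell with time, and the difference passed for 12, all higher with HRG; without each HRG array it passed for 1, 7, 2 and 1. Of 21 T and NK cell markers 3 rose: Cd3g (1.07 ± 0.21), Cd3e (0.83 ± 0.17) and Cd8b1 (0.75 ± 0.20). Their summed level was 142.54 and 144.01 at 6 h and 149.50 and 148.41 at 24 h, higher on both 24 h arrays. Of 13 mast cell markers 3 rose, with the protease Cpa3 (0.82 ± 0.18) and the IgE receptor chain Ms4a2 (0.66 ± 0.14) among them, and 1 fell (Tpsab1, -0.68 ± 0.15). Their summed level was 117.88 and 119.08 at 6 h and 121.63 and 118.06 at 24 h; in basal cells 7 fell and the difference passed for 6, or without each HRG array for 0, 6, 1 and 2. Of 15 dendritic cell markers 2 rose, with Clec9a (1.27 ± 0.13), and 1 fell (Ccr7, -0.43 ± 0.11). Their summed level was 115.76 and 115.94 at 6 h and 120.02 and 117.38 at 24 h. Clec9a changed by 1.35 in basal cells (adjusted p of the difference 0.93). Xcr1 (-0.058), Batf3 (-0.067) and Zbtb46 (-0.098) did not pass with HRG. In basal cells 1 of the dendritic cell markers rose and 7 fell, and the difference passed for 4, all higher with HRG. The sums of these 4 lists were highest on 24 h replicate 1. So were the levels of Cd79a (10.09 against 9.62 on the other 24 h array), Cpa3 (11.73 against 11.33) and Cd209a (9.18 against 6.98). The gap between the 24 h sums of the dendritic cell list came mostly from Cd209a. Without 24 h replicate 1 the rise of Clec9a still passed, and those of B cell, T and NK cell and mast cell markers missed the threshold. Leaving out any other HRG array also lost many calls over all genes, as given above. Cd3g was higher on 24 h replicate 2 (8.22) than on 24 h replicate 1 (8.12). Without 24 h replicate 1 the changes of Cd3g, Cd3e and Cd8b1 were 1.12, 0.68 and 0.64. Among 13 neutrophil markers 2 rose (Mmp8 and Csf3r, 0.50 ± 0.12) at 98.42 to 99.48 at 6 h and 99.07 to 100.02 at 24 h. Of 6 eosinophil markers 1 fell (Alox15) at 43.16 to 43.94 at 6 h and 42.85 to 43.21 at 24 h, of 16 mesothelial and fibroblast markers 1 rose (Gpm6a, 0.42 ± 0.10) at 112.78 to 112.91 at 6 h and 114.17 to 116.15 at 24 h, and of 5 platelet markers 1 rose (Ppbp) at 43.99 to 44.42 at 6 h and 46.21 to 46.66 at 24 h. Of 3 erythroid markers 0 (0 unadjusted) rose and 0 (0 unadjusted) fell, at 20.53 to 21.00 at 6 h and 20.41 to 20.47 at 24 h. The macrophage markers themselves summed to 162.48 to 163.07 at 6 h and 165.60 to 165.71 at 24 h, and 4 of 13 rose. The part of other cells in the changes given here was not tested; array levels of a marker that is off do not reach 0. With all HRG arrays kept, the other settings gave counts by which 3 to 8 T and NK cell markers and 1 to 3 mesothelial and fibroblast markers rose. In some alternatives the adjusted p of the change with HRG rose above 0.05, for Cd3g (adjusted p up to 0.087, without HRG 24 h replicate 2), Ccr7 (adjusted p up to 0.27, without HRG 24 h replicate 2), Cd3e (adjusted p up to 0.13, without HRG 24 h replicate 1), Cd8b1 (adjusted p up to 0.28, without HRG 6 h replicate 1), Cpa3 (adjusted p up to 0.17, without HRG 24 h replicate 1), Tpsab1 (adjusted p up to 0.16, without HRG 24 h replicate 2), Ms4a2 (adjusted p up to 0.14, without HRG 24 h replicate 1), Csf3r (adjusted p up to 0.19, without HRG 24 h replicate 1) and Gpm6a (adjusted p up to 0.21, without HRG 24 h replicate 1).

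The same step in basal cells shares no array with the step with HRG, but the cells come from the same pool and the fit estimates 1 common spread. In basal cells 758 genes rose and 1093 fell (9.28% of genes; 3.80% and 5.48% by direction). Of the 880 genes that rose with HRG, 380 also rose without it, which is 43.2% of the rises with HRG and 50.1% of those without, and 15 fell. Of the 572 that fell with HRG, 291 also fell without it, 50.9% of the falls with HRG and 26.6% of those without, and 22 rose. A call with HRG alone is not a difference. Among the 485 genes that passed as rises only with HRG, the difference between the steps passed for 63 and not for 422, and among the 259 such falls it passed for 21 and not for 238.

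**Figure D3:**
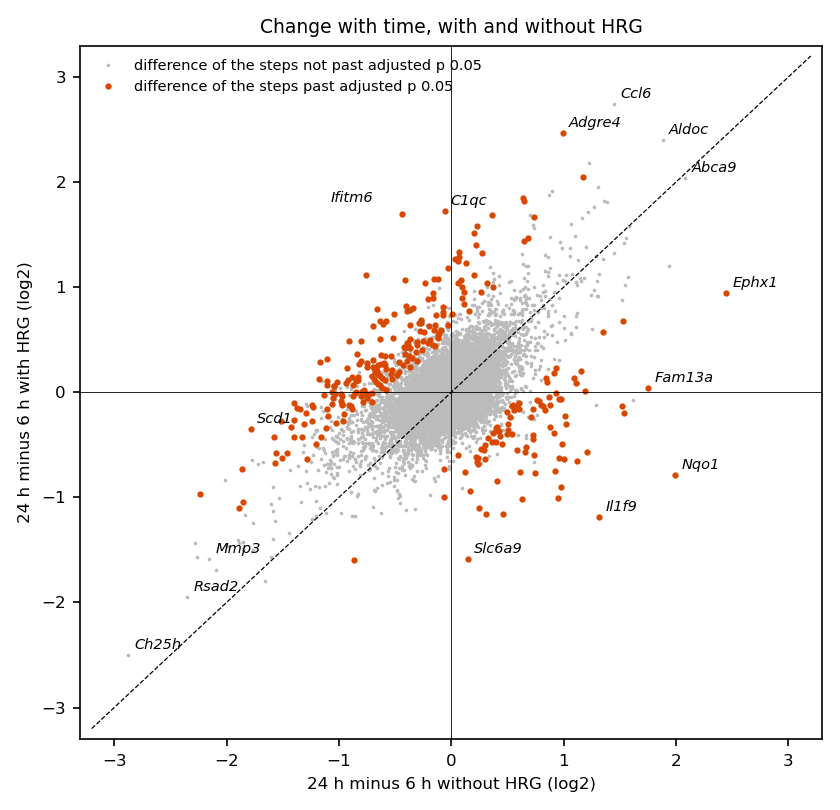
Change in log2 level from 6 h to 24 h without HRG (horizontal axis) and with HRG (vertical axis), with 1 point per gene and the genes whose difference passed limma adjusted p under 0.05 marked. Ch25h (-2.88 without HRG, -2.50 with it) lies near the diagonal of equal change, and Nqo1 (1.99 without HRG, -0.79 with it) lies far below it.

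Over all genes the difference between the steps passed for 294 (1.47%), 204 with a higher (1.02%) and 90 with a lower change with HRG (0.451%). Without each HRG array in the order above it was higher for 28, 107, 79 and 50 genes and lower for 28, 34, 41 and 38. Without basal 6 h replicate 1 it was higher for 104, and without basal 24 h replicate 2 it was higher for 86 and lower for 42. The largest upward difference was that of Ifitm6, of the interferon-induced transmembrane family, which stood at 8.27 and 8.54 at 6 h and 10.19 and 10.01 at 24 h with HRG and at 9.01 and 9.03 at 6 h and 8.80 and 8.36 at 24 h without it, a difference of 2.13 ± 0.20 (adjusted p 0.00082). With HRG it rose, and without HRG the 24 h mean lay below the 6 h mean. The others of the 10 largest were C1qc (1.78 ± 0.27), Cd3g (1.48 ± 0.30), Adgre4 (1.48 ± 0.21), the mast cell receptor Mrgprb2 (1.45 ± 0.22), the fatty acid desaturase Scd1 (1.44 ± 0.19), Bcl2a1c (1.42 ± 0.23), C1qa (1.36 ± 0.23), the leukocyte surface glycoprotein Cd52 (1.33 ± 0.17) and Sparc (1.32 ± 0.24). Bcl2a1c belongs to a family of near-identical copies, which its probes may not tell apart. Scd1 changed by -0.35 ± 0.13 with HRG (adjusted p = 0.17) and by -1.78 in basal cells, and the change with HRG did not pass. The largest downward difference was that of Nqo1, given above. Il1f9 stood at 8.55 and 8.44 at 6 h and 7.32 and 7.28 at 24 h with HRG and at 8.43 and 8.11 at 6 h and 9.40 and 9.78 at 24 h without it, a difference of -2.50 ± 0.19 (adjusted p 0.00043). It fell with HRG and rose without it. The others were Treml4 (-1.96 ± 0.34), Eid3 (-1.88 ± 0.23), Pir (-1.77 ± 0.18), Slc6a9 (-1.74 ± 0.22), the acetyl-CoA synthetase Acss2 (-1.74 ± 0.22), Fam13a (-1.72 ± 0.22), the lipoprotein receptor Lrp8 (-1.67 ± 0.15) and the exporter Abcc4 (-1.65 ± 0.20). Of these 20 differences, 13 passed under every setting run. Those of Adgre4 (adjusted p up to 0.055, without HRG 24 h replicate 1), C1qc (adjusted p up to 0.062, without HRG 24 h replicate 1), Sparc (adjusted p up to 0.13, without HRG 24 h replicate 1), Cd3g (adjusted p up to 0.15, without HRG 24 h replicate 1), Bcl2a1c (adjusted p up to 0.060, without HRG 6 h replicate 2), C1qa (adjusted p up to 0.087, without HRG 24 h replicate 1) and Treml4 (adjusted p up to 0.075, without HRG 24 h replicate 1) did not.

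**Figure D4:**
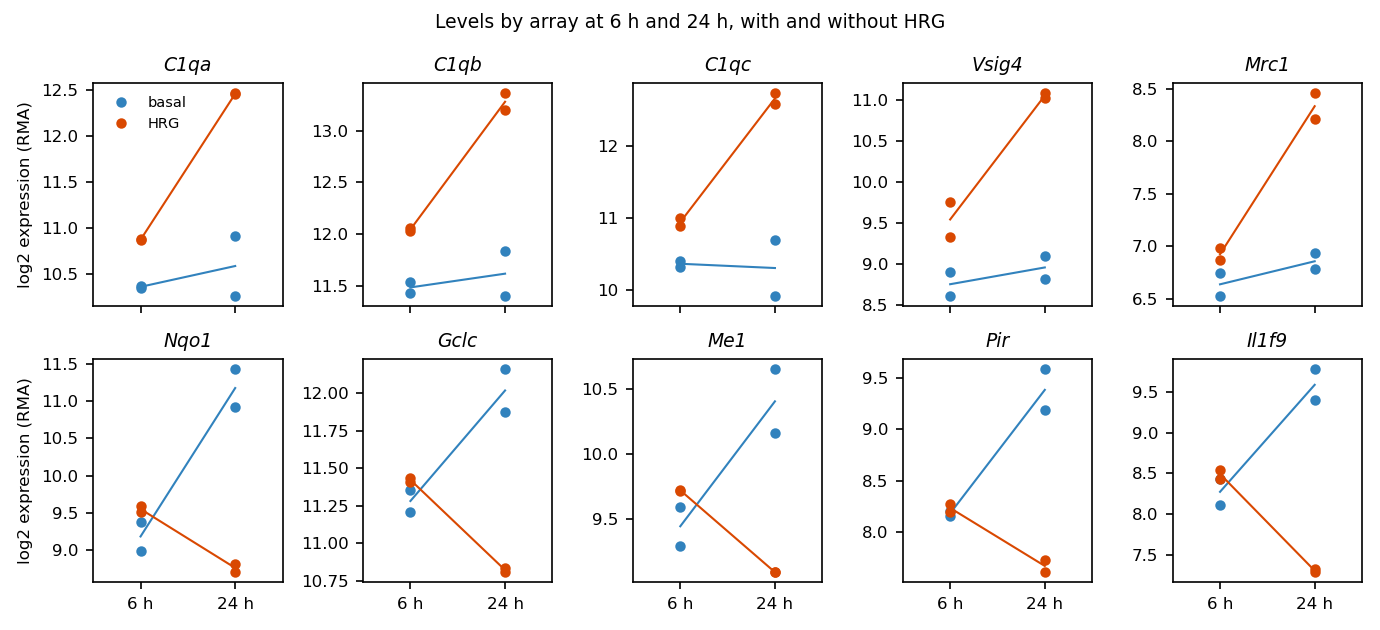
Log2 levels by array of genes whose change with time differed between cells with and without HRG, with 1 point per array and a line between the means of each time, blue for basal cells and red for HRG; each panel has its own vertical axis. Nqo1 goes up between the basal times and down with HRG, while the HRG lines of C1qc, Vsig4 and Mrc1 go up by 1.72, 1.52 and 1.41, against basal changes of -0.060, 0.21 and 0.22.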

How the data were processed

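Expression was measured on 8 whole-transcript arrays, 2 per group. The deposited values are log2 expression levels that the authors made with Affymetrix Expression Console and RMA (background correction, quantile normalization and summary of probes), per the submitters' processing notes, which also name limma; the array's genome build is not given in the sources used here. RMA is meant to make array distributions alike, but these arrays still differed. Over all rows, lower quartiles ran from 5.85 on basal 6 h replicate 1 to 6.00 on basal 24 h replicate 1. Levels of different genes are not comparable per length, and the number of arrays limits the precision. Of 28853 rows, 21789 have 1 platform symbol, 1621 several and 5443 none; rows with 1 symbol were kept, and where a gene had several (999 genes) the brightest row by its average level stood for it, which gave 19938 genes. Of the named rows, 21698 matched a RefSeq gene.

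limma 3.58.1 in R 4.3.3 fitted 1 coefficient per group over all 8 arrays (4 residual degrees of freedom), without a block, and tested 24 h minus 6 h with HRG, the same without HRG, and their difference, two-sided, with Benjamini-Hochberg adjustment over all genes and a threshold of 0.05. Gene lists (41 pathway and 10 cell type lists, of whose 1151 entries 1068 were measured, 11 through an older name) are described by counts and medians, with no set test. The members and lists were chosen with earlier results of these data known. Named genes are the 20 largest rises and falls, the 10 largest differences in each direction, and up to 6 called members of each pathway list and 3 of each cell type list, or the 2 largest where none passed, by size of change; this ranking, but no test, passed over predicted genes, small RNAs, chemosensory receptors (olfactory, vomeronasal) and segments of antigen receptor genes. Lyz2, Csf1r, Adgre1, Cd79a and Cd209a are named beyond the rule, as markers, and Irf1, Ccl5, Cxcl1, Nceh1, Arntl, Axl, Stab1, Gstp1, Timp2, Asl, Gamt, Itgam and Selplg to complete small counts, chosen after their values were seen and not followed through the alternatives. Promoter stretches were picked after the values were seen.

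Replicate numbers were checked for pairing: deviations of same-numbered arrays correlated at -0.331 to 0.411 over the pairs of groups. The signs were mixed, so the check did not show that the numbers pair the samples. With 2 arrays per group it could not exclude a pairing. Alternatives were a replicate block, a trended and robust eBayes, a renewed quantile normalization, centring of each array, leaving out the dimmest 30% of genes, the mean of a gene's rows, fits of only the 4 arrays with or without HRG, leaving out each array, and, added after seeing the data, a covariate that holds each array's lower quartile. Python 3.11.15 with pandas 2.3.3 and matplotlib 3.10.9 was used for the rest.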

Additional observations from a re-analysis of the deposited data

Results flagged for a closer look

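For 57 of the genes named by the rule, the change from 6 h to 24 h differed with and without HRG by the interaction test of limma, with Benjamini-Hochberg adjusted p over all genes between 4.3e-04 and 0.049. Each value is the log2 change with HRG minus the log2 change without it, n = 2 arrays per group. It was higher with HRG for 41 genes and lower for 16. These genes were chosen partly for their changes with HRG, so the count says nothing of how common such differences are, which is 1.47% over all genes. Only 20 of the differences, the 10 largest in each direction, were followed gene by gene through the alternative settings. Of those 20, 13 passed under every setting run. The other differences listed below were not followed in this way.

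The largest differences upward were those of Ifitm6 (2.13), C1qc (1.78), Adgre4 (1.48), Cd3g (1.48), Mrgprb2 (1.45), Scd1 (1.44), Bcl2a1c (1.42), C1qa (1.36) and Cd52 (1.33). Next in size came Sparc (1.32), Vsig4 (1.31), Serpinb10 (1.23), Timp3 (1.23), Cpa3 (1.22), Gda (1.21), Fabp5 (1.20), Mrc1 (1.19) and Atp6v0d2 (1.17). Smaller ones were found for Fcer2a (1.17), Stat4 (1.15), Fabp4 (1.14), C1qb (1.10), Tnfsf9 (1.05), Cxcr4 (1.01), Ccrl2 (0.96), S100a4 (0.93) and Ms4a2 (0.93). Then followed Trem1 (0.91), Bhlhe40 (0.88), Ppbp (0.88), Dpp4 (0.84), Gpm6a (0.83), Top2a (0.81), Mt2 (0.76), H2-DMa (0.73) and Ccr7 (0.73). The smallest upward differences were those of Csf1 (0.71), Fos (0.67), Serpinb8 (0.64), Nr4a1 (0.61) and Icam1 (0.58).

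Downward, the largest differences were those of Nqo1 (-2.78), Il1f9 (-2.50), Treml4 (-1.96), Eid3 (-1.88), Pir (-1.77), Slc6a9 (-1.74), Acss2 (-1.74), Fam13a (-1.72) and Lrp8 (-1.67). The other downward differences were those of Abcc4 (-1.65), Akr1b8 (-1.64), Procr (-1.62), Me1 (-1.58), Ephx1 (-1.50), Gclc (-1.34) and Ptger2 (-0.66). Groups of 2 arrays are too small for a test of single outlying arrays.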

How the results depend on the processing

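Among the counts with HRG, that of rises was 776 to 1261 over the settings that keep all HRG arrays, against 880, and stayed within 1.5 times of it in all of them. The count of falls (572) was 876 after renewed quantile normalization, 911 with only the 4 HRG arrays and 1257 with each array's lower quartile as a covariate, a setting chosen after seeing the data. With that covariate 50.1% of the calls were rises, against 60.6%, and the basal step had 1149 rises against 758. The difference between the steps passed upward for 392 genes and downward for 155 with a trended and robust eBayes, against 204 and 90, and downward for 215 with the covariate. Why these counts moved was not tested. Leaving out 1 array at a time gave 390 to 985 rises and 139 to 695 falls with HRG, 373 to 684 rises and 600 to 1133 falls without HRG, and 28 to 265 higher and 28 to 139 lower differences; a group left with 1 array was assumed to vary like the others. Without HRG 6 h replicate 1 389 of the 390 rises, and without HRG 24 h replicate 1 388 of the 402, were also called with all arrays.

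With the replicate block, which the data do not show to be a pairing, 863 genes rose and 589 fell with HRG, of which 831 and 549 were called without it, and the difference passed for 261 and 101 genes. No setting moved the median change of all genes by over 0.1. Of 227 named genes called with HRG, 136 were called under every setting and 91 missed the threshold under at least 1. The change of Fam13a with HRG, which was 0.04 and did not pass, was -0.15 to 0.22 when 1 array was left out, being negative without HRG 24 h replicate 1, and turned to -0.044 with the covariate. By more calls one way than the other, lists turned direction without HRG 6 h replicate 1 (NRF2, angiogenic and integrin genes), without HRG 24 h replicate 1 (B cell and mast cell markers), without HRG 24 h replicate 2 (angiogenic genes) and with the trended eBayes (MAPK inhibitors and iron genes), and under no scaling. Signal over background was not used here, so changes of dim genes may be understated by the compression of RMA values.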
